A study of Homo sapiens with 9 samples.

Results

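A20, the product of TNFAIP3, its ABIN partners and the enzymes that work beside them were followed in HT-29 cells, an established line from a human colorectal adenocarcinoma. The set held 8 genes, picked by symbol from the count table: TNFAIP3, TNIP1, TNIP2, TNIP3, CYLD, OTULIN, TAX1BP1 and ITCH. These symbols matched 9 of the 62710 distinct gene identifiers, because ITCH labelled a second identifier (ENSG00000289720) that held 0 to 6 counts in each library and was not tested. Wild-type HT-29 cells were left non-stimulated, stimulated with 500 ng/mL flagellin of Salmonella (Flagellin-ST) or stimulated with 500 ng/mL ADP-heptose, in 3 libraries each, with a stimulation of 2.5 h. The agents are those of the sample labels, and dose and time are those of the study's methods. The study describes the libraries as independent experiments, all in a single cell line.

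Innate immune receptors pass their signal to NF-κB through chains of ubiquitin that are built on adaptor and kinase proteins. A20 and CYLD take such chains apart, A20 also attaches ubiquitin to its targets, and OTULIN cuts only the linear type of chain. ABIN-1, ABIN-2 and ABIN-3 (TNIP1, TNIP2 and TNIP3) bind both ubiquitin and A20, TAX1BP1 brings A20 to its substrates and is also an autophagy receptor, and ITCH is a ubiquitin ligase that works in the A20 complex. TNFAIP3 is a textbook NF-κB target gene, so its protein acts as a negative feedback. ADP-heptose is a bacterial sugar nucleotide sensed in the cytosol by ALPK1, whereas flagellin is sensed by the surface receptor TLR5.

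After ADP-heptose, TNFAIP3 rose 27.1-fold, CYLD 2.78-fold, TNIP1 2.63-fold and TNIP2 1.31-fold, while OTULIN, TAX1BP1 and ITCH did not pass the test and TNIP3 was close to undetected. After flagellin, TNFAIP3 rose 2.41-fold and no other gene of the set passed in the fit of all 9 libraries. Here "rose" means an adjusted p under 0.05 (edgeR's quasi-likelihood test with Benjamini-Hochberg adjustment over 17412 genes), and "called" adds a change of at least 2-fold.

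Since TNFAIP3 is known as an NF-κB target, the promoters of the set were searched for the letters of its consensus. RefSeq windows on GRCh38.p14, from 250 bases before to 50 bases after each start site, were searched on both strands for the degenerate κB motif of 10 bases. The set had 14 windows, and 6 of them, from 4 of the 8 genes, held a match, against 5.90% of all 34943 windows and 7.09% of the 27167 genes with a window. Windows of a gene can overlap, so they are not separate sequences. Genes with more windows have more room for a match, and the shares were not adjusted for this. The stretches of 30 bases around the matches are shown for all 6 of these windows. They come from TNFAIP3, TNIP1 and CYLD, which rose most, and from TNIP3, which was close to undetected. Sequences run 5′ to 3′ on the gene's strand and capitals mark the consensus match.
TNFAIP3: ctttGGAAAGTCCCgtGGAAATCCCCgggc
TNIP1: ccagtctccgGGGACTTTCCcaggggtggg
CYLD upstream: ttgacagagcGGAAAGTCCCttcggccggc
CYLD at the start: cccccccaccGGGGCTTCCCcatcccccga
TNIP3 first window: tcttaaaaaaGGGGTTTCCCtgtgtatggg
TNIP3 second window: gagacatcctGGGAAATCCCtatttggaag

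The TNFAIP3 stretch (chr6:137867188-137867217, plus strand) held 2 matches, with first bases at -67 and -55 from the start site, and only 0.735% of all windows held 2 or more. GENCODE release 29 places this stretch inside an exon of TNFAIP3, since it annotates a start further upstream. The TNIP1 stretch (chr5:151081057-151081086, minus strand, match at -42) also lay in an annotated exon, in 1 of the 2 windows of the gene. CYLD had a match at -189 (chr16:50741887-50741916, plus strand, outside the annotated gene) in one window and a match at 1 (chr16:50742405-50742434, in an intron) in another. Both TNIP3 matches, at -62 (chr4:121227526-121227555, minus strand, outside the gene) and -61 (chr4:121164363-121164392, minus strand, in an intron), lay in separate windows of that gene. The first TNFAIP3 match, the upstream CYLD match and the TNIP1 match were the same 10 letters, GGAAAGTCCC, which the TNIP1 stretch carries as GGGACTTTCC on its own strand. Of all windows, 66 (0.189%) held this word, which was singled out after the matches had been seen. A further window of CYLD (chr16:50741906-50742205) and a further window of TNIP3 (chr4:121216578-121216877) held no match. This CYLD window overlaps the window with the upstream match and begins at the last base of that match, so it could not hold that site. No window of TNIP2, OTULIN, TAX1BP1 or ITCH held a match. A match is a description of letters, and a window without a match says nothing about the factor.

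**Figure D1:**
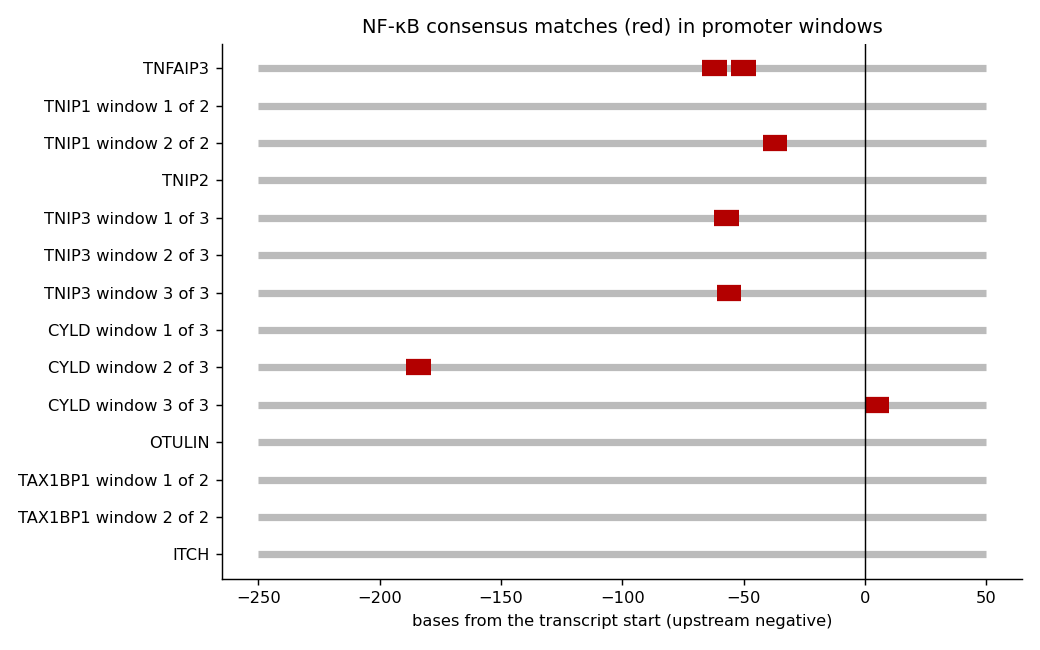
Positions of NF-κB consensus matches (red) in the 14 RefSeq promoter windows of the 8 genes (grey), in bases from the start site on the x axis, with windows of one gene in rows. Matches lie in 6 windows, and the TNFAIP3 window holds 2, at -67 and -55.

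The libraries held 35040844 to 37537705 counts for non-stimulated cells, 30770448 to 38304035 for flagellin and 50054773 to 58272772 for ADP-heptose, so the ADP-heptose libraries were deeper. Levels are given as normalized counts, scaled to the effective library sizes of edgeR. ADP-heptose replicate 3 stood apart: over 11040 genes the SD of its log2 difference was 0.364 from replicate 1 and 0.372 from replicate 2, against 0.110 between those replicates and 0.132 to 0.165 within the other groups. Its difference from replicates 1 and 2 also followed exonic length, from a median of 0.33 (log2) in the shortest of 5 equal length groups of genes to -0.27 in the longest. Values without this library are given beside many of the results that it moved, but not for the marker sums. The 9 colon epithelial markers were all detected, with summed levels in CPM (counts scaled to a common effective library size) of 8132 to 8503 in non-stimulated, 8330 to 8662 in flagellin and 8922 to 12593 in ADP-heptose libraries. The 5 leukocyte markers summed to 0.0537 to 0.410 CPM, with CD3E among 2 markers at 0 in each group. The 5 stromal and endothelial markers summed to 12.4 to 19.1 CPM, with DCN and COL1A2 at 0 and COL1A1 as its only tested gene. COL1A1 (0.41, edgeR adjusted p = 0.0311) and the epithelial marker KRT20 (0.40, 9.4e-04) rose after ADP-heptose, and their part in the results was not tested. Fewer cells and less RNA per cell cannot be told apart in such bulk libraries.

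TNFAIP3 (ENSG00000118503, chr6:137867188-137883312, plus strand, GENCODE release 29 on GRCh38) had 268, 238 and 279 normalized counts in the non-stimulated libraries. Flagellin libraries held 665, 618 and 609 and ADP-heptose libraries 7795, 7726 and 5741. All flagellin libraries thus lay above all non-stimulated ones, and each ADP-heptose library exceeded the 6 libraries of the other groups. The means were 262 ± 21.3, 630 ± 30.2 and 7087 ± 1167 (SD, n = 3). ADP-heptose raised the gene by 4.76 on the log2 scale (SE 0.13, edgeR adjusted p = 1.8e-10), a fold of 27.1 (95% interval 22.1 to 33.1). This was rank 49 of the 17412 tested genes. The rise after flagellin was 1.27 (SE 0.13, edgeR adjusted p = 2.9e-04), a fold of 2.41 (1.99 to 2.92), at rank 147. ADP-heptose libraries were 11.2-fold (9.32 to 13.5) above flagellin libraries, with a log2 difference of 3.49 (SE 0.12, edgeR adjusted p = 2.7e-09). Without ADP-heptose replicate 3 the rise was 4.89. The antisense gene WAKMAR2 overlaps TNFAIP3 in GENCODE and held 12 to 104 counts per library, and the strand setting of the counting is not given in the sources used here, so its reads cannot be told apart from those of TNFAIP3.

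TNIP1 (ENSG00000145901, chr5:151029945-151093577, minus strand) encodes ABIN-1, an adaptor that binds A20. Its normalized counts were 4811, 4860 and 4855 in non-stimulated cells, 6139, 6358 and 6074 with flagellin and 11684, 11177 and 15371 with ADP-heptose. The groups did not overlap, and replicate 3 was the highest of the ADP-heptose libraries. Means were 4842 ± 27.4, 6190 ± 149 and 12744 ± 2289 (SD, n = 3). The rise after ADP-heptose was 1.40 (SE 0.10, edgeR adjusted p = 1.8e-06), or 2.63-fold (2.25 to 3.08), and 1.24 without replicate 3. ADP-heptose lay 1.04 above flagellin (SE 0.10, edgeR adjusted p = 3.2e-05), but 0.90 without replicate 3 and 0.91 under scaling to library totals, both below the 2-fold limit. Flagellin gave 0.35 (SE 0.10), with an edgeR adjusted p of 0.539 in the fit of all 9 libraries. In the fit of the 6 libraries compared, the same difference of 0.35 had an SE of 0.046 and an edgeR adjusted p of 3.4e-06, and without ADP-heptose replicate 3 the adjusted p was 8.2e-07. DESeq2 gave 0.176 on all 9 libraries. The size of the flagellin difference was alike in these fits, and the SE and the adjusted p differed.

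TNIP2 (ENSG00000168884, chr4:2741648-2756376, minus strand), whose product ABIN-2 also holds the kinase TPL2 in its complex, had 2522, 2641 and 2495 normalized counts without stimulation. Flagellin libraries had 2634, 2631 and 2751 and ADP-heptose libraries 3174, 3163 and 3669. Each ADP-heptose library exceeded the other groups, while flagellin and non-stimulated libraries overlapped. The rise after ADP-heptose was 0.39 (SE 0.08, edgeR adjusted p = 0.00487), or 1.31-fold (1.17 to 1.46), and the adjusted p was 3.1e-05 to 0.0332 over the 16 alternatives. Without ADP-heptose replicate 3 the rise was 0.32. Flagellin gave 0.07 (edgeR adjusted p = 1.0, interval -0.10 to 0.23). The excess over flagellin of 0.32 had an edgeR adjusted p of 0.0193, which rose above 0.05 in 5 of the alternatives, to between 0.0523 and 0.0840. TNIP3 (ENSG00000050730, chr4:121131408-121227466, minus strand), an ABIN gene known as inducible in myeloid cells, had 4 counts in ADP-heptose replicate 1 and 0 in the other 8 libraries. A count of 0 allows up to 3 counts, or 0.0515 to 0.0975 CPM of the library's total counts, for counting error alone, so no fold is given.

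CYLD (ENSG00000083799, chr16:50742050-50801935, plus strand), the deubiquitinase first known as a tumour suppressor, rose after ADP-heptose by an amount whose interval overlapped that of TNIP1. Normalized counts were 426, 418 and 458 in non-stimulated cells, 495, 467 and 493 with flagellin and 1308, 1286 and 1028 with ADP-heptose. All 3 groups were apart, with a narrow gap between flagellin and non-stimulated libraries. The rise after ADP-heptose was 1.48 (SE 0.10, edgeR adjusted p = 1.1e-06), or 2.78-fold (2.37 to 3.26), and 1.58 without replicate 3. Over flagellin it was 1.32 (edgeR adjusted p = 4.6e-06), or 2.49-fold (2.13 to 2.92). Flagellin itself gave 0.16 (interval -0.07 to 0.39, edgeR adjusted p = 1.0). Antisense genes that overlap CYLD held at most 10 counts per library.

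OTULIN (ENSG00000154124, chr5:14664664-14699711, plus strand), the enzyme that cuts linear chains, did not pass in any comparison. Its normalized counts were 1876, 1802 and 1818 in non-stimulated cells, 1722, 1793 and 1820 with flagellin and 1735, 1872 and 1414 with ADP-heptose. The ADP-heptose difference was -0.13 (interval -0.34 to 0.08, edgeR adjusted p = 0.421), with -0.018 (0.895) without ADP-heptose replicate 3 and -0.26 (0.139) under library totals. Against flagellin it was -0.09, which turned to 0.03 without ADP-heptose replicate 3. The groups overlapped throughout. The interval of the ADP-heptose difference lay well inside 2-fold in both directions.

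TAX1BP1 (ENSG00000106052, chr7:27739331-27844564, plus strand) had 6956, 7436 and 7662 normalized counts in non-stimulated cells, 6859, 7665 and 7499 with flagellin and 7968, 7910 and 7454 with ADP-heptose. ADP-heptose gave 0.08 (interval -0.07 to 0.23, edgeR adjusted p = 0.493) and flagellin -0.0021 (interval -0.15 to 0.15). The groups overlapped. JAZF1, which overlaps it on the opposite strand, held 9 to 37 counts per library. ITCH (ENSG00000078747, chr20:34363235-34511393, plus strand) had 1276, 1397 and 1360 normalized counts in non-stimulated cells, 1405, 1316 and 1286 with flagellin and 1527, 1583 and 1273 with ADP-heptose. Its ADP-heptose difference was 0.12 (interval -0.08 to 0.32, edgeR adjusted p = 0.435). Without ADP-heptose replicate 3 it was 0.21, with an edgeR adjusted p of 0.0220, and 0.23 (0.0166) against flagellin. ADP-heptose replicates 1 and 2 exceeded each non-stimulated library and replicate 3 did not.

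**Figure D2:**
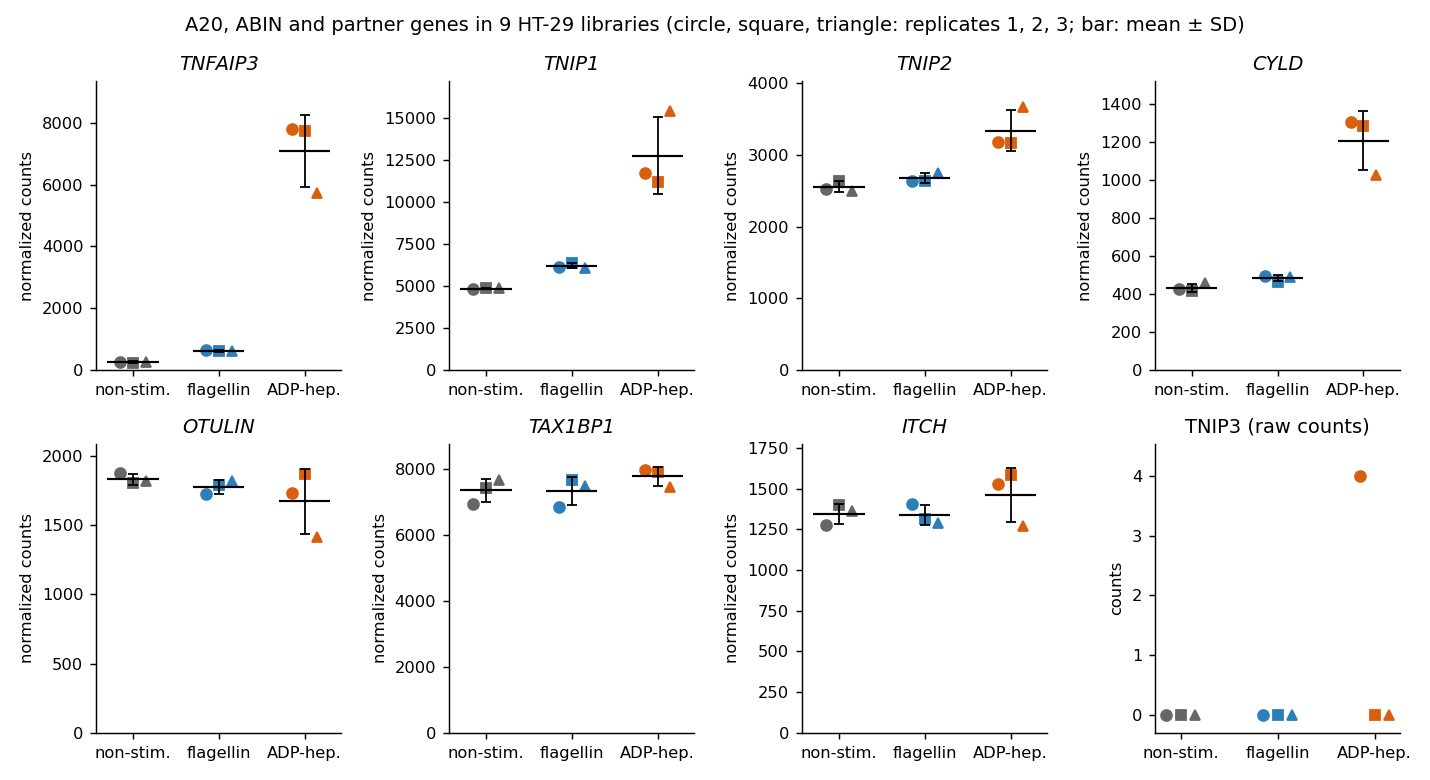
Normalized counts (raw counts for TNIP3) on the y axes, from 0, of the 8 genes in non-stimulated, flagellin and ADP-heptose libraries, with replicates as circle, square and triangle and bars for mean ± SD (n = 3). For TNFAIP3, TNIP1, TNIP2 and CYLD the ADP-heptose libraries lie above all others, and ADP-heptose replicate 3 (triangle) stands apart in most panels.

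In the ADP-heptose comparison, 3 of the 7 tested genes of the set were called higher and 0 lower, and 4 passed on adjusted p alone. Over the whole table, 2.89% were called higher and 0.471% lower, and 7.48% and 4.42% passed on adjusted p alone (edgeR). Within the set, 0 genes were lower at an unadjusted p under 0.05 in the main edgeR fit and by DESeq2. Under library totals 1 gene of the set was lower at this limit, and 0 after adjustment. The share of all genes at an unadjusted limit was not counted. Over all genes, 504 were called higher and 82 lower, a split that became 429 and 175 under scaling to library totals. In the flagellin comparison 1 gene was called, against 0.212% of all genes called higher and 0.0115% lower, and 1 passed on adjusted p alone, against 0.368% and 0.0115%. Against flagellin, ADP-heptose gave 3 genes called higher, against 2.06% of all genes higher and 0.287% lower, and 4 on adjusted p alone, against 5.4% and 2.76%. Over all genes the split of 359 higher and 50 lower became 309 and 93 under library totals. Libraries of 4 genes did not overlap in the ADP-heptose comparison, all higher, where 15.4% of all genes were so higher and 14.7% lower. After flagellin 3 genes did not overlap, all higher (7.66% of all genes higher, 5.19% lower), and against flagellin 4 genes, all higher (14.2% and 12.8%). The median log2 change of the 7 genes was 0.39 after ADP-heptose and 0.07 after flagellin, with 0.0087 and 0.0048 for all genes. Library totals moved the median of all genes to -0.13 after ADP-heptose and -0.11 against flagellin. Both stimulated groups share the non-stimulated libraries, so their changes are not independent.

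**Figure D3:**
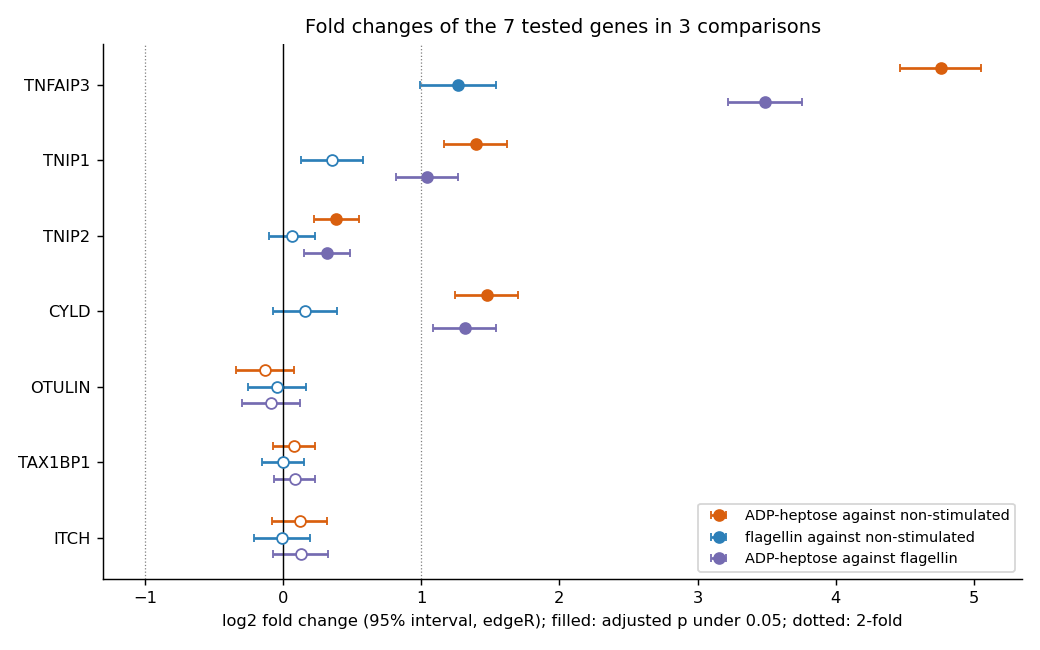
Log2 fold changes (x axis) with 95% intervals derived from the edgeR test for the 7 tested genes, in ADP-heptose against non-stimulated, flagellin against non-stimulated and ADP-heptose against flagellin. Filled points have an adjusted p under 0.05 and dotted lines mark 2-fold. TNFAIP3 reaches 4.76 and 1.27, CYLD 1.48 and TNIP1 1.40.

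The order of mRNA levels within the set differed between the groups. To compare genes, CPM were divided by the exonic length in kilobases. This length joins the exons of all annotated transcripts of a gene, and the transcripts present in these cells were not resolved. Without stimulation the order was TNIP2 (23.6), TNIP1 (20.7), TAX1BP1 (19.9), OTULIN (5.28), ITCH (5.01), TNFAIP3 (1.29) and CYLD (0.832). TNIP1 overlapped TAX1BP1, and OTULIN overlapped ITCH, between libraries. After flagellin the order was TNIP1 (26.5), TNIP2 (24.7), TAX1BP1 (19.9), OTULIN (5.12), ITCH (4.97), TNFAIP3 (3.10) and CYLD (0.929). A20 mRNA thus stayed below that of TNIP1, TNIP2, TAX1BP1 and ITCH. TNIP3, close to undetected, was left out of these orders. After ADP-heptose the order was TNIP1 (54.6), TNFAIP3 (34.8), TNIP2 (30.8), TAX1BP1 (21.1), ITCH (5.44), OTULIN (4.82) and CYLD (2.31). The libraries of TNFAIP3 (28.2 to 38.3) and TNIP2 (29.2 to 33.9) overlapped, as did those of ITCH and OTULIN. By this measure TNFAIP3 stood in the sixth place without stimulation and in the second after ADP-heptose. In ADP-heptose replicate 3 it lay below TNIP2 (28.2 against 33.9). Mean normalized counts, not divided by length, put TNFAIP3 (262) below CYLD (434) without stimulation. After ADP-heptose they put TNFAIP3 (7087) below TNIP1 (12744) and TAX1BP1 (7778). The level of TNFAIP3 relative to TNIP1 was 0.0620 ± 0.0052 in non-stimulated cells, 0.117 ± 0.0066 with flagellin and 0.662 ± 0.203 after ADP-heptose (SD, n = 3). ADP-heptose replicates 1 and 2 had 0.765 and 0.793, and the outlying replicate 3 had 0.428. The groups did not overlap. An exact permutation test of 3 libraries against 3 cannot go below p = 0.1, so no test was made of this ratio.

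**Figure D4:**
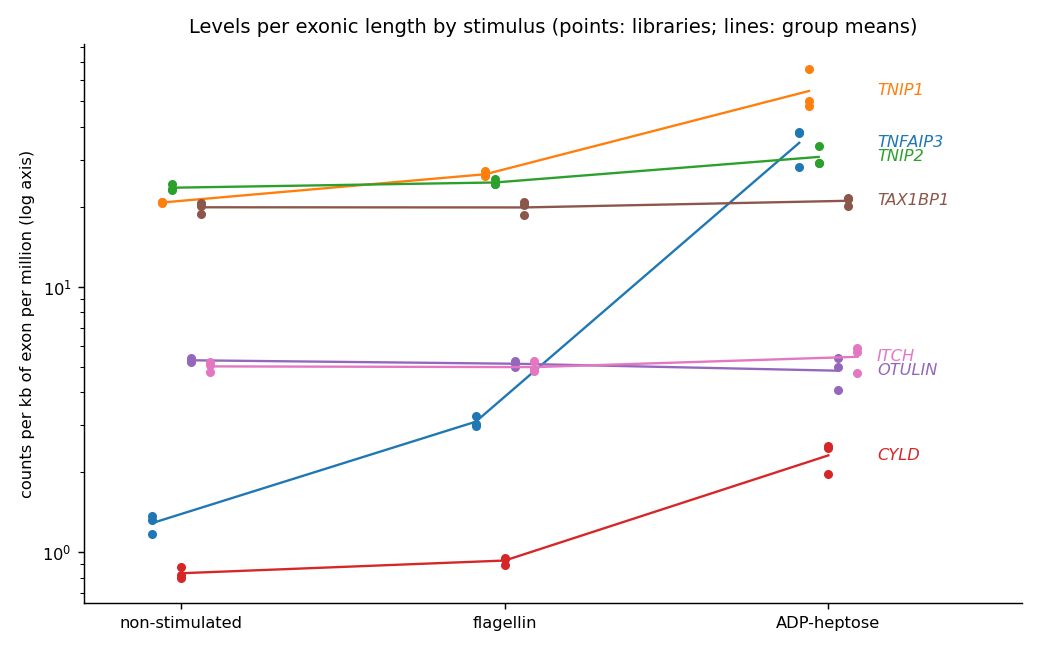
CPM per kilobase of exon on a log axis, for the 7 genes in the 3 groups (points are libraries, lines join group means). The group mean of TNFAIP3 climbs from 1.29 to 34.8, group means of TNIP2 and TAX1BP1 lie within 19.9 to 30.8, and that of CYLD is lowest in each group.

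The third ADP-heptose library deviated in opposite directions for different genes of the set. Replicate 3 was below the mean of the other ADP-heptose libraries by 0.43 (log2) for TNFAIP3, 0.33 for CYLD, 0.35 for OTULIN, 0.29 for ITCH and 0.09 for TAX1BP1, and above it by 0.43 for TNIP1 and 0.21 for TNIP2. TNFAIP3 and TNIP1 have exonic lengths of 5051 and 5793 bases, which both lie in the middle length group, where the median difference was 6.0e-05. CYLD (12954 bases) and OTULIN (8614 bases) lie in the longest group, where the median was -0.27, and TNIP2 (2686 bases) lies in the shortest group, where it was 0.33. TAX1BP1 (9165 bases) also lies in the longest group, and ITCH (6664 bases) lies in the next longest, where the median was -0.12.

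The wider ubiquitin machinery was read from 5 lists of genes, against a median of 0.0087 over all genes after ADP-heptose. Counts at an unadjusted p are descriptions only, because the share of all genes at that limit was not counted. Of the 4 genes that build or anchor linear chains, 0 were called by edgeR or DESeq2 after ADP-heptose, with 3 higher at an unadjusted p under 0.05 in edgeR and a list median of 0.37, which was 0.30 without ADP-heptose replicate 3 and 0.23 under library totals. RBCK1, the HOIL-1 subunit, rose by 0.37 (edgeR adjusted p = 0.0201, but 0.0636 in the fit of 6 libraries). RNF31, the catalytic subunit HOIP, held at most 22 counts and overlaps PSME2 and an annotated readthrough gene, so its value of 1.19 (edgeR adjusted p = 0.176) is uncertain. Of the 5 further partners of A20 and ITCH, 0 were called by either tool and 2 passed, at an unadjusted and at an adjusted p under 0.05 in edgeR, with a median of 0.16 that was 0.08 without ADP-heptose replicate 3 and 0.018 under library totals. RNF11, a component of the A20 complex, rose by 0.45 (edgeR adjusted p = 7.3e-04), and ZFAND5, a protein with an A20-type zinc finger, by 0.32 (0.00482). Of 16 other deubiquitinases 15 were tested and 0 were called by either tool, with 1 higher and 2 lower at an unadjusted p under 0.05 in edgeR and a median of -0.04. Without ADP-heptose replicate 3 these were 3 higher and 1 lower with a median of 0.06, and under library totals 1 higher and 6 lower with a median of -0.17, so the list had no stable direction. OTUD5 passed with 0.32 (edgeR adjusted p = 0.0117, but 0.0541 in the fit of 6 libraries).

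Of 8 ubiquitin readers, proteins that bind the chains, 2 were called after ADP-heptose, 3 passed on adjusted p and the median was 0.10, which was 0.20 without ADP-heptose replicate 3 and turned to -0.036 under library totals. SQSTM1, which encodes the autophagy receptor p62, rose by 1.55 (edgeR adjusted p = 1.3e-08), and OPTN, which encodes optineurin, by 1.12 (1.9e-06). SQSTM1 overlaps MGAT4B and MRNIP on the opposite strand, whose reads cannot be told apart from its own with the strand setting unknown. Of 14 chain builders and their substrates 2 were called and 7 passed on adjusted p, with a median of 0.20 that was 0.18 without ADP-heptose replicate 3 and 0.06 under library totals. These were led by BIRC3 and BIRC2, the ligases cIAP2 and cIAP1, with 4.93 and 1.11 (edgeR adjusted p = 1.6e-10 and 3.3e-07). TRAF3, an adaptor that the cIAP proteins mark with ubiquitin, rose by 0.93 (1.1e-05), and TRAF6, the ligase downstream of ALPK1 and TLR5, had -0.10 (0.570). Under library totals 1 reader and 1 chain builder were called, and without ADP-heptose replicate 3 these were 2 and 3. Over all genes, 429 and 550 were called higher in these fits, against 504 in the main fit.

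After flagellin BIRC3, with 2.08 (edgeR adjusted p = 1.9e-06), was the only gene of these lists to pass in the fit of all 9 libraries. At an unadjusted p under 0.05, edgeR in this fit had 1 deubiquitinase, 2 readers and 3 chain builders higher and no gene of the 5 lists lower. The share of all genes at this limit was not counted, so no direction is read from it. SQSTM1 had 0.24 (edgeR adjusted p = 0.508), which was 0.00189 in the fit of 6 libraries and 0.0173 by DESeq2, so whether it passed depended on the fit, as for TNIP1. In the fit of 6 libraries 1 reader and 3 chain builders passed on adjusted p, TRAF3 (0.30, 0.00543) and BIRC2 (0.21, 0.0475) among them. Without ADP-heptose replicate 3 these were 2 readers, OPTN (0.19, 0.0385) being the other, and 3 chain builders. Over all genes, 43 were called higher in the fit of 6 libraries and 48 without ADP-heptose replicate 3, against 37 in the main fit. The share of all genes passing on adjusted p alone in these fits was not counted, so nothing about the lists is read from it.

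**Figure D5:**
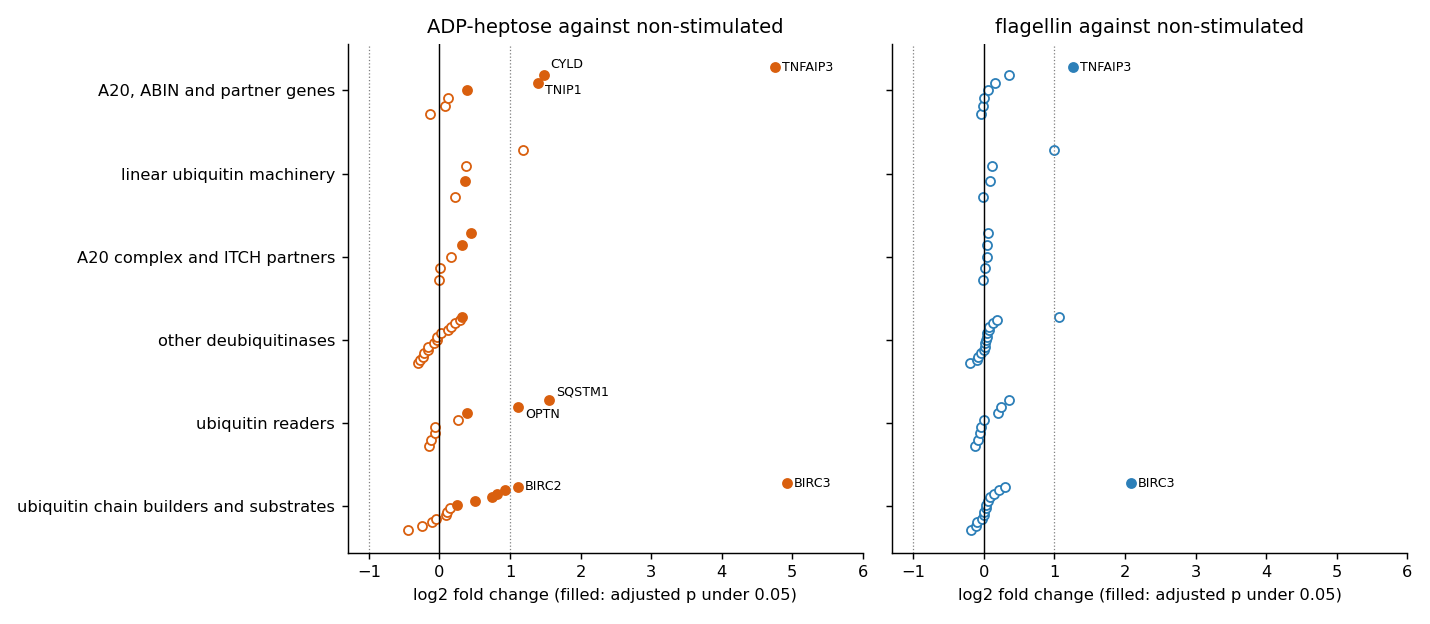
Log2 fold changes (x axis) of the genes of 6 lists (rows) after ADP-heptose (left) and flagellin (right) against non-stimulated cells; filled points have an edgeR adjusted p under 0.05, and called genes are named. BIRC3 (4.93) lies beside TNFAIP3 (4.76) after ADP-heptose, and after flagellin only these genes are filled.

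For reference, the NF-κB target genes NFKBIA, BIRC3, CXCL8 and CCL20 were all called after ADP-heptose, with log2 changes of 3.94, 4.93, 7.68 and 8.01. The study already names CXCL8 and CCL20 among its top upregulated genes, and BIRC3 is also a chain builder above. These values are therefore a description and no separate check. After flagellin the changes were 0.68, 2.08, 2.49 and 4.74, and NFKBIA alone stayed under 2-fold (edgeR adjusted p = 2.4e-04).

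The genes whose pattern over the 9 libraries was most like that of each called gene were sought among 10676 genes, by the root mean square difference of log2 normalized counts after centring. For TNFAIP3 the nearest were PTGS2 (0.163), CX3CL1 (0.193) and BIRC3 (0.356), which encode cyclooxygenase-2, fractalkine and cIAP2. For TNIP1 they were HLA-B (0.0641), TRIM16 (0.0725) and SMOX (0.0737). For CYLD they were SERTAD2 (0.0549), FOXO1 (0.0646) and ZNF697 (0.0792). The likeness is over libraries of 3 conditions and is a description without a test. PTGS2 changed by 4.42 and 1.11 after ADP-heptose and flagellin, next to 4.76 and 1.27 for TNFAIP3.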

How the data were processed

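Poly(A) RNA was read as paired ends on a NovaSeq, and the authors deposited raw counts per gene, 1 column per library, made with HISAT2 and featureCounts. Versions, genome build, annotation and strand setting are not given in the sources used here. The table has 62972 lines, and 232 identifiers that repeat with identical counts were kept once. One fit of all 9 libraries was made with edgeR 4.0.16 under R 4.3.3 (TMM scaling, filterByExpr defaults, robust quasi-likelihood F test), and 17412 genes were tested. DESeq2 1.42.0 was among 16 alternatives, and the fits were tested on simulated data. Levels per length used exonic lengths of GENCODE release 29. Groups follow the labels. The replicate numbers were not shown to pair libraries, so no block entered the main fit. The genes and lists were chosen with earlier results of these data known. Named are the 8 genes, list genes called in any comparison with at most 2 more per list, and the 3 genes most like each called gene (mean log2 CPM of at least 2). Plots used Python 3.11.15 and matplotlib 3.10.9. Protein sequences were not used here. A further list of genes is not reported here.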

Additional observations from a re-analysis of the deposited data

How the results depend on the processing

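After ADP-heptose 3 genes of the set were called higher and 0 lower in all 16 alternatives, after flagellin 1 and 0, and against flagellin 2 or 3 and 0. The alternatives were DESeq2's size factors or library totals, the DESeq2 test, no filter on low counts, a minimum mean of 10 counts, the replicate block, the fit of 6 libraries and each library left out. Of the values of single genes under them, 317 kept direction and side of the threshold, 9 changed sign, 5 gained an adjusted p under 0.05 and 5 lost it. With the replicate block 467 genes were called higher and 56 lower after ADP-heptose, 32 and 1 after flagellin and 337 and 39 against flagellin, and the counts of called genes of the set stayed at 3, 1 and 3. Deviations from the group means had correlations of -0.45 to 0.29 between same-numbered libraries and -0.46 to 0.50 between different-numbered ones. With 3 libraries per group and ADP-heptose replicate 3 apart, this could not decide whether libraries were paired. Under library totals 175 genes were lower after ADP-heptose and 93 against flagellin, TAX1BP1 turned to -0.052 and -0.034 in these comparisons and ITCH to -0.0094 after ADP-heptose. Without the filter on low counts 60 genes were higher and 8 lower after flagellin and 77 lower against flagellin, and DESeq2 gave 4 and 82 lower. With 1 library left out, genes lower were 49 to 96 after ADP-heptose, 0 to 3 after flagellin and 31 to 59 against flagellin. TAX1BP1 after flagellin was -0.043 to 0.038, ITCH -0.053 to 0.019, and OTULIN against flagellin -0.17 to 0.033. The cause was not tested. Low counts limited TNIP3 and RNF31 among the genes named.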
